A study of Homo sapiens with 36 samples.

Results

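The 47 DNA replication and G1/S genes described here encode proteins that prepare, start and carry out the copying of the genome. They were chosen by gene symbol and matched to the Ensembl gene IDs of the count tables, and 47 of 58302 IDs were taken. The list holds 10 genes of origin licensing, 8 of helicase activation and the fork, 7 of the polymerases and primase, 10 of the clamp, clamp loader, ligation and single-strand binding, 7 of G1/S control and 5 of chromatin and histone supply. Read counts came from 36 RNA sequencing libraries of JEKO, MINO and UPN-1, which are 3 established human cell lines of mantle cell lymphoma, a B cell cancer. Cells of each line received vehicle (DMSO) or GS716054, a KDM5 inhibitor per the labels, and were collected after 24 or 72 h, with 3 libraries in each of the 12 groups. The dose is not given in the sources used here. All groups shared RPMI-1640 medium with fetal bovine serum. No genetic change or further agent is named, and each line descends from the tumour of 1 person, so the lines stand for 3 tumours only. The labels call the libraries of a group biological replicates without saying whether they came from separate cultures. Each p value therefore sets a difference against the spread between these samples, which may in part be technical.

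Before S phase, the origin recognition complex, CDC6 and CDT1 load the MCM2 to MCM7 helicase onto DNA, a step called licensing. MCM10, CDC45 and the GINS complex then turn that helicase into a moving fork, where primase, the replicative polymerases, the PCNA clamp and its RFC loader copy DNA. Many of these genes are transcribed in late G1 by E2F factors, which the retinoblastoma protein RB holds back until cyclin D and cyclin E kinases phosphorylate it. Mantle cell lymphoma is known for cyclin D1 expression, which acts on this switch. KDM5 enzymes remove methyl groups from lysine 4 of histone H3, and KDM5A was first found as a protein that binds RB. In a bulk RNA sample, fewer cells in S phase and less RNA of these genes per cell cannot be told apart.

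Promoter letters were read from RefSeq (GRCh38.p14), whose table held 39 of the 47 genes, in windows from 250 bases before to 50 bases after the annotated start. Exact matches to 4 forms of the E2F site were searched on both strands, TTTCCCGC, TTTCGCGC, TTTGCCGC and TTTGGCGC, and overlapping matches were counted separately. At least 1 of them lay in 20 of the 39 windows (51.3%), against 3.33% of all 27305 promoter windows of the table. The share was 23.7% in 38 other replication genes and 12.5% in 24 genes of mitosis. The cell cycle homology region, searched as TTTGAA on both strands, showed the opposite order, with 2.56% of the windows of the 39 genes, 70.8% of those of mitosis and 15.4% of all. CCAAT, also searched on both strands, lay in 59% of the 39 windows and 35.7% of all. It lay in 55.3% of the windows of the other replication genes and in 79.2% of those of mitosis. The windows of the 39 genes were also richer in G and C, with a median of 67.7% against 58.3%, and the shares were not adjusted for that. MCM6 held 4 matches to the E2F forms, and MCM2, MCM3, MCM7 and E2F1 held 2 each. A match describes letters in this window and is no evidence of binding.

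The 150 bases before the start are shown for 6 genes whose levels carry the results below. They are written 5′ to 3′ on the gene's strand, with matches to the E2F forms in capitals. In CDC25A the match begins 44 bases before the start, in UHRF1 14, in CDT1 35, in E2F1 33 and 20, and in PCNA 59. TIPIN, shown for contrast, held no match to these forms in its whole window.
CDC25A, chr3:48188418-48188567, minus strand: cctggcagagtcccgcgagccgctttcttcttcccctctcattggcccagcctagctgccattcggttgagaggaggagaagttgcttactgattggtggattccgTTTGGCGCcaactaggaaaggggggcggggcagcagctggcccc
UHRF1, chr19:4909351-4909500, plus strand: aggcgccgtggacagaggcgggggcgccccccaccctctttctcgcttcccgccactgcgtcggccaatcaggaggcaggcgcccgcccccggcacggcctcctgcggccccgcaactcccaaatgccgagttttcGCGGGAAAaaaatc
CDT1, chr16:88803639-88803788, plus strand: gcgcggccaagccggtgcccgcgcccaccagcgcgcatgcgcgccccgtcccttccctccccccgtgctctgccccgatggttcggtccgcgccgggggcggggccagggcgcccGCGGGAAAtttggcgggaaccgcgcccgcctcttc
E2F1, chr20:33686386-33686535, minus strand: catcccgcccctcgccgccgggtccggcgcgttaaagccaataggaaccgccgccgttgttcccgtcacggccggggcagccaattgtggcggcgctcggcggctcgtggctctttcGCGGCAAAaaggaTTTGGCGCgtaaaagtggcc
PCNA, chr20:5126623-5126772, minus strand: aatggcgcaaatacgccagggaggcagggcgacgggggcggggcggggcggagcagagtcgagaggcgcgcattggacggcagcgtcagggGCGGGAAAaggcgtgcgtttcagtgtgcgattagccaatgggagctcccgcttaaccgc
TIPIN, chr15:66386718-66386867, minus strand: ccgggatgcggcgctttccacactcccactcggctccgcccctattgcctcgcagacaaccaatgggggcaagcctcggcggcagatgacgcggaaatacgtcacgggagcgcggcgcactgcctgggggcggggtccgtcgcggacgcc

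**Figure D1:**
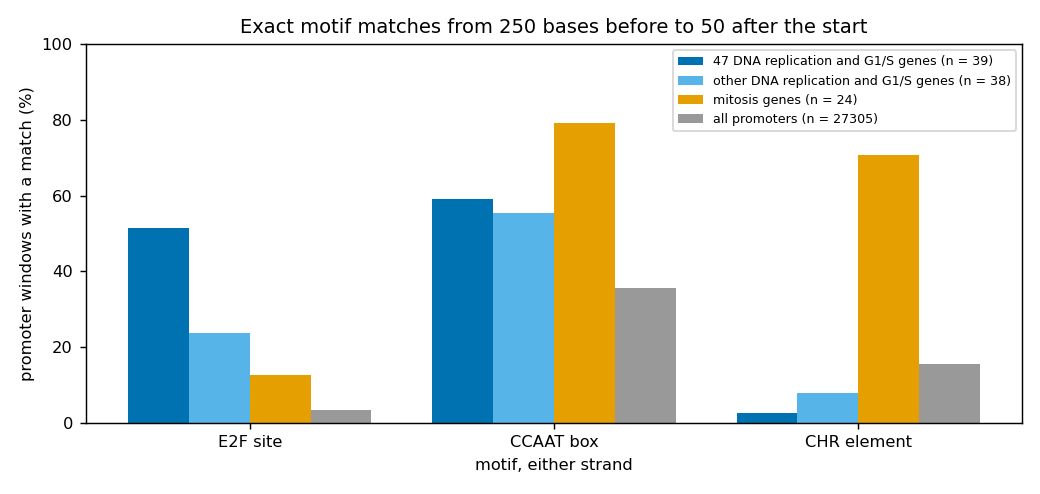
Share of promoter windows (vertical axis, percent) with at least 1 exact match to the E2F forms, CCAAT or the cell cycle homology region TTTGAA on either strand (horizontal axis), for 4 sets of genes shown as bars. The 39 replication and G1/S genes stand at 51.3% for the E2F forms, and the 24 genes of mitosis at 70.8% for TTTGAA.

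Each library had 8784815 to 14970876 reads in genes (median 11926903), of which the 47 genes held 0.2412% to 0.9118%. All 47 genes passed the filter on low counts in every line. The B cell markers CD79A, CD79B, MS4A1, PAX5 and CD22 were detected in every library, from 15.78 CPM (read counts scaled to library size) for CD22 to 2378 CPM for CD79A. Summed T cell, myeloid, epithelial and fibroblast markers reached at most 16 CPM in any library. Reads of some genes could be shared with neighbours, since the strand setting of the counting is not given in the sources used here. Exons of the opposite strand covered 37.14% of the exonic length of CCNE2, 23.61% of MCM2, 23.43% of GINS4, 16.83% of CDK2, 10.92% of GINS3 and 10.65% of RFC5. Exons of another gene on the same strand covered 21.14% of TIPIN, 16.76% of POLA2 and 15.14% of PRIM1.

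Levels between genes were compared per length, as reads scaled by exonic length and library size (FPKM) from one scaling over all 36 libraries. In DMSO at 24 h, PCNA, the sliding clamp that holds polymerases on DNA, had the highest level of the 47 genes in each line. It stood at 310.4, 345.5 and 346.4 FPKM in JEKO, at 403.8, 354.7 and 431 in MINO and at 422.1, 369.2 and 362.9 in UPN-1, so MINO and UPN-1 overlapped. MCM7 followed at 185.6 to 221.7 FPKM in group means, with overlapping ranges in MINO and UPN-1. At the low end stood CCNE2 in JEKO (1.61 ± 0.224 FPKM), GINS4 in MINO (2.44 ± 0.307) and CCNE2 in UPN-1 (6.67 ± 1.22; SD, n = 3 each), where GINS3 overlapped it at 6.94 ± 0.102. CCNE2 encodes a cyclin E that activates CDK2, and its 3 JEKO libraries (1.382, 1.612 and 1.83 FPKM) lay below every MINO and UPN-1 library. MCM5 showed another order of the lines, with 45.8 ± 6.09 FPKM in JEKO, 68.97 ± 2.31 in UPN-1 and 118.7 ± 23 in MINO (SD, n = 3 each). GINS2, a subunit of the active helicase, was lowest in MINO (26.76 ± 1.5 FPKM) against 66.89 ± 4.31 in JEKO and 72.07 ± 5.96 in UPN-1. These levels between lines are a description and were not tested.

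With time in DMSO alone, RNA levels of most of the 47 genes were lower in JEKO at 72 h than at 24 h, and the amount differed between libraries. The summed level of the 47 genes in JEKO was 8518, 9108 and 9748 CPM at 24 h and 4142, 5604 and 6700 CPM at 72 h in replicates 1, 2 and 3. Every 72 h library lay below every 24 h library, and replicate 1 was lowest at both times. In MINO the sums were 7176, 6099 and 7654 CPM at 24 h and 5506, 3532 and 5681 CPM at 72 h, again without overlap. In UPN-1 they were 8762, 8622 and 8618 CPM at 24 h and 8560, 6567 and 8342 CPM at 72 h. The UPN-1 groups did not overlap either, but replicates 1 and 3 at 72 h lay just under the lowest library at 24 h.

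**Figure D2:**
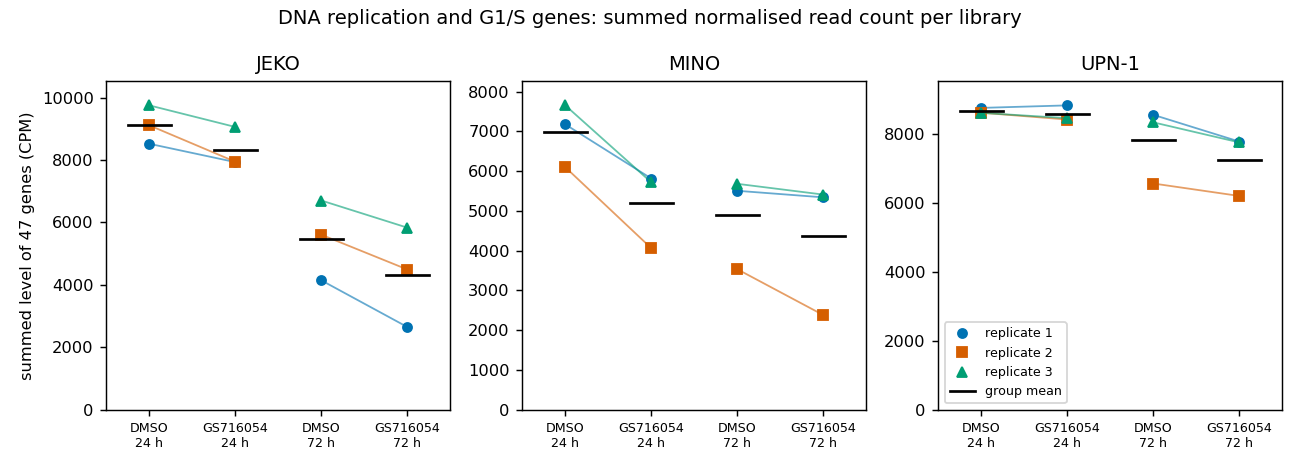
Summed normalised read count of the 47 genes (vertical axis, CPM) in each library, by treatment and time (horizontal axis), with 1 panel per cell line. Points are libraries, lines join libraries of 1 replicate number within a time, and bars are group means; JEKO DMSO falls from a mean of 9125 to 5482 CPM between 24 and 72 h, and MINO GS716054 replicate 2 at 72 h is the lowest point at 2379 CPM.

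Calls come from edgeR's quasi-likelihood test at an adjusted p (Benjamini-Hochberg, over the whole table) below 0.05. In JEKO DMSO, 28 of the 47 genes were lower at 72 h than at 24 h and 0 higher, against 14.6% of all genes called lower. The median log2 fold change was -0.86 over the 47 genes and 0.05 over all genes. The groups did not overlap for 39 of the 47 genes, all lower at 72 h, against 25.1% of all genes. Licensing gave 6 of 10 called genes, helicase activation and the fork 7 of 8, the polymerases and primase 3 of 7, the clamp group 6 of 10, G1/S control 3 of 7 and chromatin supply 3 of 5. The count of 28 dropped to 9 without JEKO DMSO 24 h replicate 3 and to 9 without JEKO DMSO 72 h replicate 1. Here and below, the share of all genes called was not counted in fits with a library or pair left out. CDC6, MCM6, TIPIN, FEN1, RPA2, CDC25A and SLBP were called whichever of the 6 libraries was left out.

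Among the licensing genes, CDC6, the loader that recruits the helicase to origins, stood at 71.24, 80.93 and 89.8 CPM at 24 h and at 31.57, 32.18 and 44.59 CPM at 72 h in JEKO DMSO. No library of one time reached the range of the other, and the log2 fold change was -1.16 ± 0.235 (SE, adjusted p = 0.00346). MCM5, a helicase subunit, read 319.8, 370.8 and 413.2 CPM at 24 h and 124, 151.6 and 238.6 CPM at 72 h (log2 fold change -1.10 ± 0.3, adjusted p = 0.0143). MCM4 fell by 1.21 on the log2 scale (adjusted p = 0.016) and ORC1, the largest subunit of the origin complex, by 1.11 (adjusted p = 0.0349). CDT1, the partner of CDC6 in loading, did not share this. Its levels were 192.9, 212.2 and 238.5 CPM at 24 h and 144.1, 223.7 and 275.8 CPM at 72 h, and the log2 fold change was 0.00 ± 0.315. MCM2 went from 508.4, 601.2 and 589.1 CPM to 243.4, 412.5 and 454.6 CPM without overlap, and missed the threshold (log2 fold change -0.61 ± 0.277, adjusted p = 0.102).

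At the fork, MCM10, which helps to activate the helicase, went from 102.6, 95.09 and 106.1 CPM to 26.75, 43.4 and 60.38 CPM in JEKO DMSO (log2 fold change -1.22 ± 0.366, adjusted p = 0.0222). TIPIN, part of the complex that steadies stalled forks, went from 30.21, 30.02 and 34.83 CPM to 11.01, 10.87 and 18.08 CPM. Its log2 fold change of -1.25 ± 0.256 (adjusted p = 0.00357) was the largest decrease of the 47 genes. CDC45 fell by 1.04 on the log2 scale (adjusted p = 0.0356) and GINS2 by 0.90 (adjusted p = 0.0357). PCNA went from 484.4, 536.6 and 534 CPM to 168.8, 240.4 and 308.9 CPM (log2 fold change -1.11 ± 0.308, adjusted p = 0.0151). POLE2, the small subunit of polymerase epsilon, fell by 0.86 (adjusted p = 0.0161). The catalytic subunit POLE and the ligase LIG1 had log2 fold changes of -0.06 and -0.10 and were not called.

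In G1/S control, CDC25A, the phosphatase that removes inhibitory phosphates from CDK2, went from 104, 119.8 and 141.1 CPM to 35.43, 51.49 and 67.25 CPM in JEKO DMSO. The log2 fold change was -1.24 ± 0.241 (adjusted p = 0.00279). E2F8, a repressive E2F factor, went from 33.09, 27.46 and 33.28 CPM to 8.195, 16 and 19.15 CPM (log2 fold change -1.11 ± 0.3, adjusted p = 0.0136). E2F1, an activating E2F factor, was at 145.6, 145.2 and 166.9 CPM at 24 h and at 122.3, 139.3 and 164.5 CPM at 72 h. These ranges overlapped, and the log2 fold change was -0.10 ± 0.213 (adjusted p = 0.734). The cyclins CCNE1 (-0.28 ± 0.177, adjusted p = 0.244) and CCNE2 (-0.65 ± 0.251, adjusted p = 0.0608) were not called. UHRF1, which helps to keep DNA methylation after copying, went from 332, 372.1 and 432.7 CPM to 78.98, 176.2 and 232 CPM (log2 fold change -1.22 ± 0.363, adjusted p = 0.0211). SLBP, which binds the stem loop of histone mRNAs, went from 179.8, 182.8 and 200 CPM to 82.11, 98.73 and 115.8 CPM (log2 fold change -0.92 ± 0.184, adjusted p = 0.00309).

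In MINO DMSO, 0 of the 47 genes were called between 72 and 24 h, against 0.0932% of all genes. At an unadjusted p under 0.05 there were 10, and DESeq2 called 2, RFC5 and RPA1, named after their values were seen. Here and below, the share of all genes at an unadjusted p under 0.05 or called by DESeq2 was not counted. Such counts may therefore not be particular to the 47 genes. The fitted log2 fold change was negative for 46 of 47 genes, with a median of -0.50, and the groups did not overlap for 29 genes, against 17.1% of all genes. CDC6 in MINO read 78.64, 59.47 and 86.28 CPM at 24 h and 47.45, 31.75 and 52.28 CPM at 72 h (log2 fold change -0.77 ± 0.354, adjusted p = 0.208). CCNE2 had the lowest fitted value at -0.90 ± 0.376 (adjusted p = 0.177), and E2F1 the highest at 0.05 ± 0.314. In UPN-1 DMSO, 0 genes were called lower or higher, against 1.47% of all genes, with 6 at an unadjusted p under 0.05 and 0 by DESeq2. The median was -0.15, and the groups did not overlap for 14 genes, against 13% of all genes. Without UPN-1 DMSO 72 h replicate 3, 7 were called, with CDT1 higher and the others lower, and the share of all genes in that fit was not counted. TIPIN came closest to the threshold in UPN-1, from 40.8, 41.42 and 38.83 CPM to 30.04, 28.44 and 35.56 CPM (log2 fold change -0.36 ± 0.119, adjusted p = 0.0961). The test for unequal change with time in the 3 lines called 0 of the 47 genes, against 0.167% of all genes, with 2 at an unadjusted p under 0.05, so a difference between JEKO and the other lines was not shown.

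The inhibitor was compared with DMSO at each time. Without regard to replicate numbers, 0 of the 47 genes were called in any of the 6 comparisons, while of all genes 0.018% and 0.3% were called in JEKO, 2.39% and 5.56% in MINO and 0.0262% and 0.334% in UPN-1 at 24 and 72 h. In this order, 2, 7, 5, 8, 2 and 4 of the 47 genes had an unadjusted p under 0.05, with no share of all genes counted. The smallest adjusted p values were 0.719, 0.252, 0.051, 0.0664, 1 and 0.156. DESeq2 called 1 gene each in MINO at 24 h (POLD2), MINO at 72 h (CDT1) and UPN-1 at 72 h (E2F8), all lower, and 0 in the others. The median log2 fold changes were -0.13, -0.33, -0.48, -0.27, -0.04 and -0.14.

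Libraries with the same replicate number deviated together within a time, so a second fit compared GS716054 with DMSO within replicate numbers. With this block the counts were higher, and each called gene was lower with GS716054. In MINO 30 of 47 genes were called lower at 24 h, against 7.36% of all genes, and 15 at 72 h, against 9.8%. At 72 h, 8 were called in JEKO, against 1.43%, and 11 in UPN-1, against 3.29%. At 24 h, 0 were called in JEKO and UPN-1, against 0.0899% and 1.5% of all genes, with 5 and 6 at an unadjusted p under 0.05. The block rests on replicate numbers whose meaning the labels do not give, and the 4 counts above 0 moved to between 1 and 14 when 1 pair was left out.

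**Figure D3:**
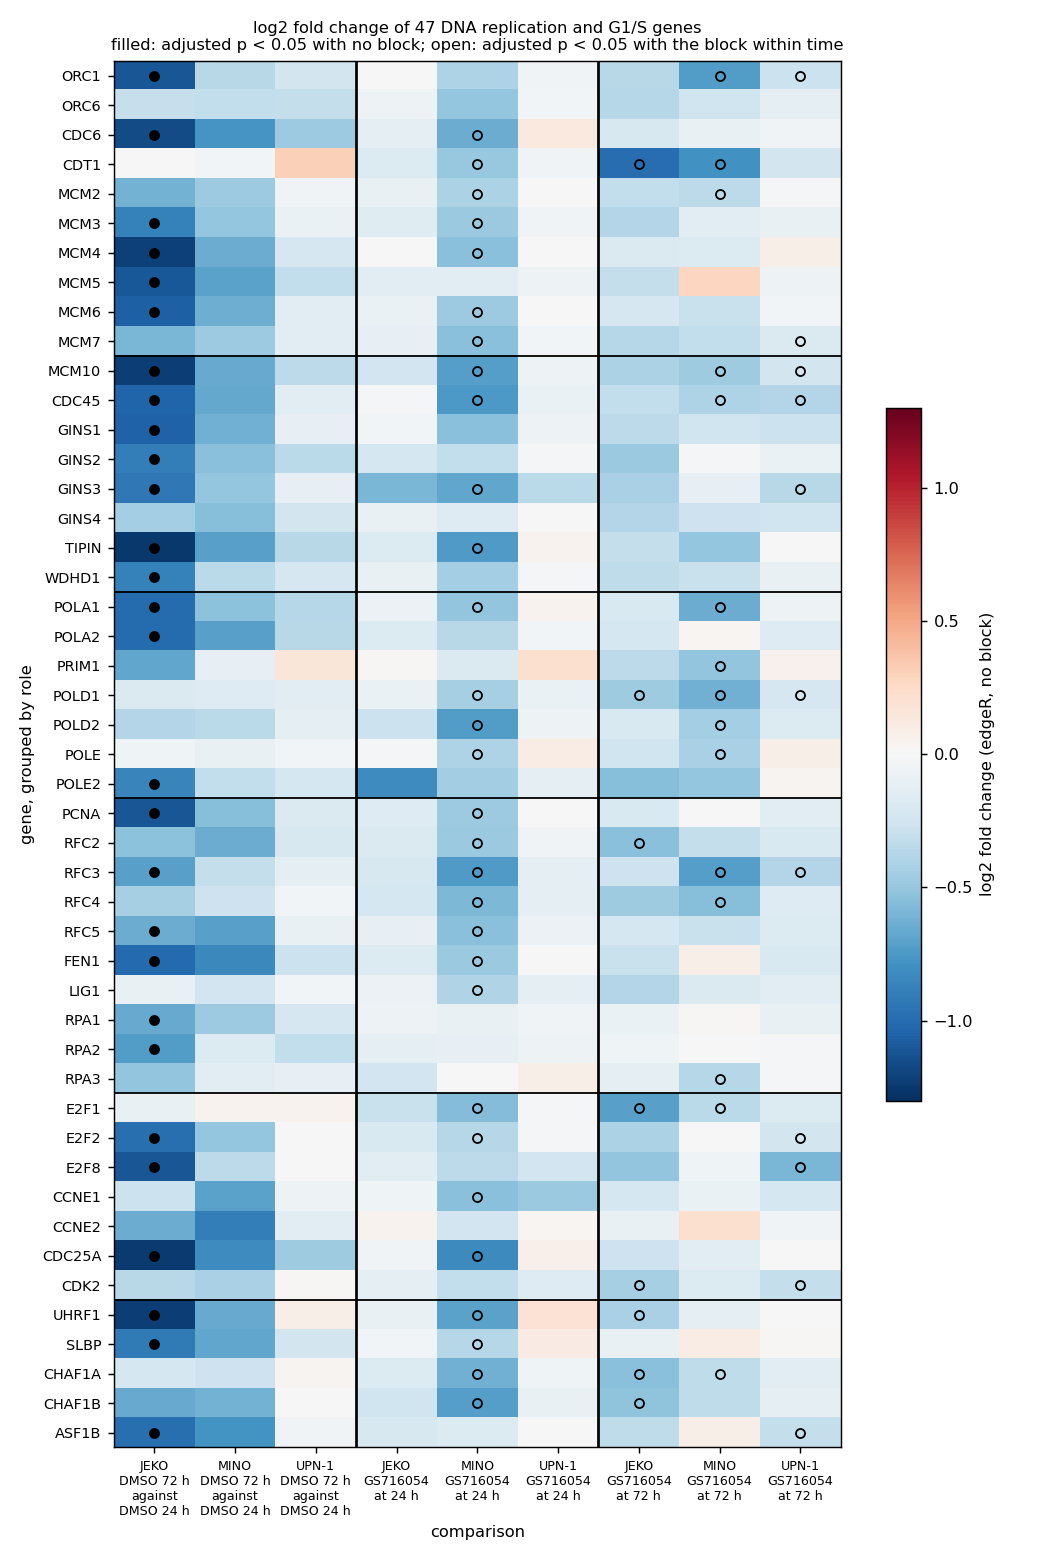
Fitted log2 fold change (colour scale) of each of the 47 genes (rows, grouped by role) in 9 comparisons (columns): DMSO 72 h against DMSO 24 h, then GS716054 against DMSO at 24 h and at 72 h. Filled circles mark genes called without the block, all 28 in JEKO DMSO, and open circles those called with the block within a time, 30 of them in MINO at 24 h.

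In MINO at 24 h, the summed level of the 47 genes was 7176, 6099 and 7654 CPM in DMSO and 5814, 4060 and 5717 CPM with GS716054, so all treated libraries were lower. The treated library of each number lay below its DMSO partner for 45 of 47 genes in 3 of 3 pairs, against 26.5% of all genes. All 3 treated libraries were below all 3 DMSO libraries for 30 genes, against 16.9% of all genes. The median ratio within pairs was -0.33, -0.64 and -0.46 on the log2 scale in replicates 1, 2 and 3. By role, the calls were 7 of 10 in licensing, 4 of 8 at the fork, 4 of 7 of the polymerases and primase, 7 of 10 in the clamp group, 4 of 7 in G1/S control and 4 of 5 in chromatin supply. Leaving out pair 1 left 10 calls, leaving out pair 2 left 1 and leaving out pair 3 left 7, and POLD2 was called in each of these.

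POLD2, a small subunit of polymerase delta chosen for description after its values were seen, stood in MINO at 24 h at 275.8, 257.4 and 294 CPM in DMSO and at 163.7, 151.4 and 182 CPM with GS716054. The ranges were far apart relative to their width. The log2 fold change was -0.74 ± 0.116 (SE, adjusted p = 0.00105) with the block and -0.73 ± 0.179 (adjusted p = 0.051) without it. CDC25A read 43.89, 30.6 and 41.12 CPM in DMSO and 25.69, 17.34 and 22.01 CPM with GS716054 (log2 fold change -0.83 ± 0.177, adjusted p = 0.00658 with the block and 0.238 without). CDC45, the helicase cofactor, read 58.27, 49.53 and 54.71 CPM against 38.14, 24.67 and 33.82 CPM (log2 fold change -0.77 ± 0.151, adjusted p = 0.00409 with the block and 0.382 without). For both genes no treated library reached the DMSO range. UHRF1 read 200.4, 156.9 and 222.7 CPM against 148.7, 75.27 and 132.3 CPM (log2 fold change -0.75 ± 0.143, adjusted p = 0.00368 with the block and 0.417 without). MCM10 fell by 0.73 on the log2 scale with the block (adjusted p = 0.00538), TIPIN by 0.75 (adjusted p = 0.0134) and CDC6 by 0.66 (adjusted p = 0.0128).

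Among the other MINO calls at this time, RFC3 and CHAF1B had log2 fold changes of -0.75 and -0.73 with the block. PCNA read 524.7, 459 and 556 CPM in DMSO and 401.5, 273.3 and 434.1 CPM with GS716054 (log2 fold change -0.50 ± 0.158, adjusted p = 0.0476). E2F1 read 90.62, 95.91 and 112.7 CPM against 67.59, 62.68 and 72.29 CPM (log2 fold change -0.56 ± 0.144, adjusted p = 0.0176). Both genes showed separate ranges in the treated and DMSO libraries. The helicase subunits MCM2, MCM3, MCM4, MCM6 and MCM7 were called, with log2 fold changes of -0.43 to -0.56. MCM5 was the exception among the 6 subunits, at 788.8, 647.2 and 952.4 CPM in DMSO and 794.4, 571.8 and 805.7 CPM with GS716054 (log2 fold change -0.14 ± 0.128, adjusted p = 0.523). CCNE1 (-0.59 ± 0.188, adjusted p = 0.0466) and SLBP (-0.39 ± 0.117, adjusted p = 0.0396) were called with the block, and GINS2 (-0.34 ± 0.158, adjusted p = 0.178) and CCNE2 (-0.27 ± 0.129, adjusted p = 0.178) were not.

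At 72 h the MINO sums were 5506, 3532 and 5681 CPM in DMSO and 5341, 2379 and 5410 CPM with GS716054. Replicate 2 was the lowest library of both groups, and the groups overlapped. The median ratio within pairs was -0.07, -0.71 and -0.13 on the log2 scale, so replicate 2 differed most. In 3 of 3 pairs 29 genes were lower, against 25.8% of all genes, and for 4 (CDT1, ORC1, POLD2 and RPA3) the groups did not overlap, against 10.4%. Without pair 2, 9 genes were called, 8 lower and MCM5 higher. The polymerases and primase gave 5 of the 15 calls, from 7 genes: POLA1, PRIM1, POLD1, POLD2 and POLE. POLA1, the catalytic subunit that extends primers, was also chosen after its values were seen and read 66.52, 40.54 and 70.84 CPM in DMSO and 45.49, 25.65 and 42.3 CPM with GS716054. Each treated library was below its DMSO partner, and the log2 fold change was -0.65 ± 0.111 (adjusted p = 0.00128 with the block and 0.163 without). ORC1 read 35.27, 26.28 and 36.93 CPM against 24.45, 9.126 and 26.13 CPM (log2 fold change -0.81 ± 0.181, adjusted p = 0.00697 with the block and 0.2 without). ORC1, CDT1, POLA1, PRIM1, POLD1, POLD2 and RFC3 were called whichever pair was left out. PCNA, CDC6, CDC25A and UHRF1, called at 24 h, were not called at 72 h, with log2 fold changes of -0.12 to -0.25. Of the 30 genes called at 24 h and the 15 at 72 h, 12 were in both, which is 12 of 30 and 12 of 15.

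In JEKO at 72 h the sums were 4142, 5604 and 6700 CPM in DMSO and 2647, 4490 and 5830 CPM with GS716054. The spread between replicates was wider than the treatment difference, with replicate 1 lowest in both groups. POLD2 alone of the 47 genes had all treated below all DMSO libraries, which 4.67% of all genes had, whereas 40 were lower in 3 of 3 pairs, against 18%. The median ratio within pairs was -0.68, -0.32 and -0.22 on the log2 scale. The 8 calls with the block were CDT1, E2F1, RFC2, CHAF1A, CHAF1B, POLD1, CDK2 and UHRF1. CHAF1A and CHAF1B belong to the CAF-1 complex, which places histones on new DNA, and stood at -0.59 ± 0.118 (adjusted p = 0.0221) and -0.55 ± 0.125 (adjusted p = 0.0358). Without pair 1, 2 or 3 the count was 2, 1 and 2, and CDT1 was called each time.

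In JEKO and MINO at 72 h, CDT1 had the largest fitted decrease of the 47 genes with the block. In JEKO it stood at 144.1, 223.7 and 275.8 CPM in DMSO and at 48.33, 123.5 and 151.8 CPM with GS716054. Each treated library held less than its DMSO partner, with the ranges overlapping because replicate 1 was low in both groups. The log2 fold change was -1.09 ± 0.142 with the block (adjusted p = 0.00277) and -0.99 ± 0.319 without (adjusted p = 0.306). In MINO it read 71.89, 74.14 and 90.9 CPM in DMSO and 52.62, 29.6 and 55.02 CPM with GS716054, without overlap (log2 fold change -0.83 ± 0.14, adjusted p = 0.00126 with the block and 0.0664 without). In UPN-1 it read 225.3, 168.9 and 130.8 CPM against 177.2, 139 and 129.9 CPM, and was not called (log2 fold change -0.22 ± 0.0686, adjusted p = 0.0609 with the block). CDT1 was thus lower with GS716054 in each of the 9 pairs at 72 h, though UPN-1 replicate 3 was nearly equal at 130.8 and 129.9 CPM. The share of all genes lower in all 9 pairs was not counted. The fitted decreases of CDT1 came from these same libraries, so the pairs are no separate support.

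E2F1 had a like course in JEKO, at 122.3, 139.3 and 164.5 CPM in DMSO and 58.56, 79.23 and 122.4 CPM with GS716054 at 72 h. The highest treated library just passed the lowest DMSO library (log2 fold change -0.76 ± 0.122, adjusted p = 0.00708 with the block and 0.252 without). In MINO at 72 h the E2F1 levels were 114.5, 72.38 and 122.6 CPM against 101.5, 35.93 and 106.4 CPM (log2 fold change -0.45 ± 0.144, adjusted p = 0.0424 with the block). The JEKO values of the 2 kinds of comparison can be set side by side. They share the DMSO libraries at 72 h, so an error in those libraries moves the 2 values in opposite directions. An opposite pattern can arise from that alone, and the contrast between genes was not tested. CDT1 and E2F1 had log2 fold changes of 0.00 and -0.10 with culture time and -0.99 and -0.71 with GS716054, all without the block. CDC6, CDC25A and PCNA had -1.16, -1.24 and -1.11 with culture time and -0.21, -0.27 and -0.20 with GS716054. POLD1 and CHAF1A had -0.19 and -0.23 with time and -0.46 and -0.54 with GS716054. These genes are examples and do not divide the list into 2 classes. Of the 47 genes, 46 had a negative fitted value with time and 47 with GS716054 at 72 h. GINS2 means were 238.2 CPM in DMSO at 24 h, 127.6 in DMSO at 72 h and 91.36 with GS716054 at 72 h. UHRF1 was called lower in both comparisons, with the block for GS716054.

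**Figure D4:**
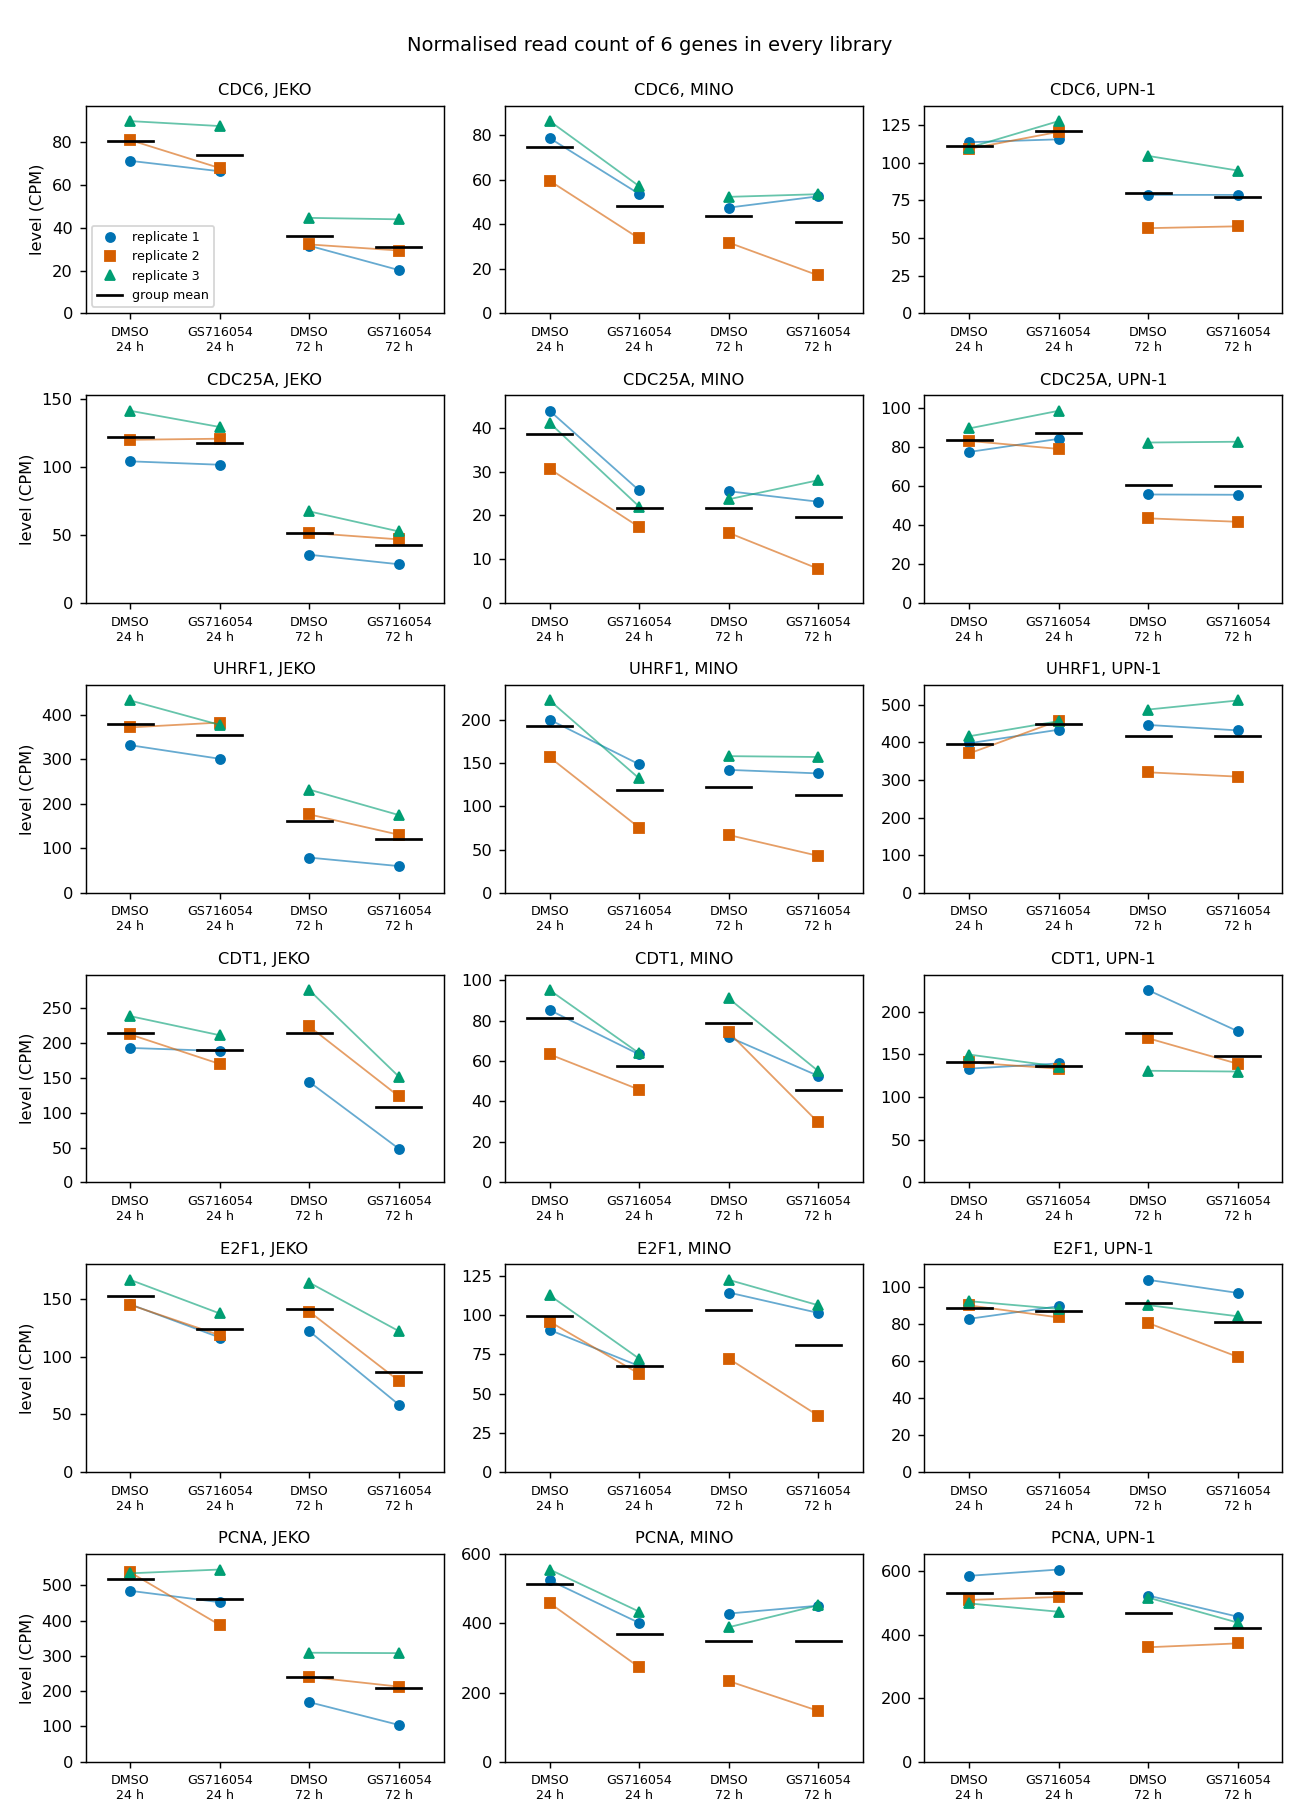
Normalised read count (vertical axis, CPM, a separate scale in each panel) of CDC6, CDC25A, UHRF1, CDT1, E2F1 and PCNA in every library, by treatment and time (horizontal axis), with 1 column of panels per cell line. Points are libraries, lines join libraries of 1 replicate number within a time, and bars are group means; in JEKO, CDC6 drops from 80.66 to 36.12 CPM with time in DMSO, while CDT1 stands at 214.5 and 214.6 CPM in DMSO and at 107.9 CPM with GS716054 at 72 h.

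In UPN-1 the sums at 72 h were 8560, 6567 and 8342 CPM in DMSO and 7783, 6205 and 7759 CPM with GS716054, lower in each pair with overlapping ranges. In 3 of 3 pairs 27 genes were lower, against 18.5% of all genes, and for 3 (CDK2, E2F8 and POLD1) the groups did not overlap, against 3.27%. E2F8 read 33.4, 29.79 and 33.53 CPM in DMSO and 23.22, 16.29 and 24.88 CPM with GS716054, without overlap (log2 fold change -0.60 ± 0.0998, adjusted p = 6.43e-04 with the block and 0.156 without). CDC45 read 76.59, 49.42 and 73.08 CPM against 57.59, 36.04 and 59.4 CPM (log2 fold change -0.39 ± 0.0717, adjusted p = 0.00176 with the block). CDK2, the kinase that cyclin E activates, read 141.4, 120.2 and 133.9 CPM against 109.4, 100.1 and 110.5 CPM, without overlap (log2 fold change -0.30 ± 0.0604, adjusted p = 0.00299 with the block and 0.358 without). CDC45, RFC3 and E2F8 were called whichever pair was left out, and the count was 3 without pair 1.

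With the block, 9 of the 47 genes were called lower at 72 h in 2 or more lines, against 1.43% of the 13791 genes tested in all 3. POLD1, the catalytic subunit of polymerase delta, was the one called in all 3, against 0.189% of those genes. It read 107.8, 131.3 and 153.2 CPM in DMSO and 67.63, 96.52 and 121.2 CPM with GS716054 in JEKO (log2 fold change -0.48 ± 0.104, adjusted p = 0.0288). In MINO it read 131.1, 79.61 and 138.7 CPM against 95.26, 51.47 and 81.33 CPM (log2 fold change -0.62 ± 0.121, adjusted p = 0.00313). In UPN-1 it read 159.7, 150 and 167.1 CPM against 148.1, 111.8 and 148.7 CPM (log2 fold change -0.23 ± 0.0684, adjusted p = 0.0431). POLD1 was lower with GS716054 in every one of the 9 pairs. Its calls came from these same libraries, so the pairs are no separate support. Its call remained in MINO whichever pair was left out, in JEKO it was lost with each (highest adjusted p = 0.137), and in UPN-1 it was kept in 1 of 3 (highest adjusted p = 0.202). Without the block its adjusted p was 0.501, 0.149 and 0.776 in the order of the lines. ORC1, MCM10, CDC45 and RFC3 were called in MINO and UPN-1, CDT1, E2F1 and CHAF1A in JEKO and MINO, and CDK2 in JEKO and UPN-1. RFC3, a subunit of the loader that opens the PCNA clamp, fell by 0.82 on the log2 scale in MINO (adjusted p = 0.00317) and by 0.37 in UPN-1 (adjusted p = 5.46e-04). It stood at -0.30 ± 0.115 in JEKO (adjusted p = 0.204).

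At 24 h in JEKO, 28 genes were lower in 3 of 3 pairs, against 15.9% of all genes, and 10 had treated libraries below all DMSO libraries, against 6.11%. In UPN-1 these were 19 genes, against 19.3%, and 9, against 7.6%. There, 7 genes were higher in 3 of 3 pairs, and the share of all genes for this was not counted. Treated libraries lay above all DMSO libraries for 2 genes, against 7.33%. In JEKO the lowest fitted value was that of POLE2, at 19.18, 14.5 and 15.32 CPM in DMSO and 8.535, 8.399 and 10.72 CPM with GS716054. The ranges were apart, and the change missed the threshold both ways (log2 fold change -0.82 ± 0.186, adjusted p = 0.152 with the block and 0.719 without). In UPN-1 at 24 h the lowest was that of CCNE1, at 16.78, 19.13 and 17.48 CPM against 14.16, 11.92 and 12.29 CPM. It too missed the threshold (log2 fold change -0.48 ± 0.123, adjusted p = 0.0573 with the block). UHRF1 in UPN-1 at 24 h leaned the other way, from 397.6, 370.5 and 416.3 CPM to 433.7, 457.6 and 456.4 CPM, and was not called (log2 fold change 0.19 ± 0.0596, adjusted p = 0.135 with the block).

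The effect of GS716054 was tested for a difference between 72 and 24 h within each line, and 0 of the 47 genes were called in any line with or without the block. Of all genes, MINO had 0.0133% called without and 0.679% with the block, UPN-1 0% and 0.0459%, and JEKO 0% both ways. The medians of the difference without the block were -0.22 for JEKO, 0.25 for MINO and -0.11 for UPN-1. So the loss of the PCNA, CDC6, CDC25A and UHRF1 calls between 24 and 72 h in MINO was not shown to be a change. The test for unequal effects in the 3 lines called 0 genes without the block at 24 h, against 0.106% of all genes, and 0 at 72 h, against 1.02%. At an unadjusted p under 0.05 there were 1 and 0. With the block it called 7 genes or 14.9% at 24 h (CDC6, CDC45, TIPIN, POLA1, POLD2, CDC25A and UHRF1), against 5.74% of all genes. At 72 h it called 3 or 6.38% (CDT1, MCM5 and POLA1), below the 9.79% of all genes. At 24 h each of the 7 had its lowest effect in MINO.

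Calls were then counted by whether the promoter window held an E2F form, as a description. In JEKO DMSO with time, 14 of the 20 genes with a match and 10 of the 19 without were called lower, with medians of -0.92 and -0.66. In MINO at 24 h with the block, 16 of 20 and 13 of 19 were called lower with GS716054, with medians of -0.49 and -0.50. At 72 h the counts were 3 of 20 and 4 of 19 for JEKO, 6 and 8 for MINO, and 4 and 5 for UPN-1. The differences between these shares were not tested. Of the genes whose sequences are shown above, CDC25A, UHRF1 and PCNA hold a match and were called lower with time in JEKO DMSO. E2F1 and CDT1 hold a match and were not called, and TIPIN was called lower and holds none.

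A list of 46 other replication and G1/S genes gives the wider pathway. In JEKO DMSO 31 of them were lower at 72 h than at 24 h and 1 higher, against 14.6% of all genes called lower. RRM2, a subunit of the enzyme that makes deoxynucleotides, fell by 1.90 on the log2 scale (adjusted p = 0.00309), and TFDP1, the partner of E2F factors in DNA binding, by 1.14 (adjusted p = 7.87e-04). POLD4, a small polymerase delta subunit, rose by 1.06 (adjusted p = 0.0114). With GS716054 and the block, MINO had 20 lower and 1 higher at 24 h and 15 lower at 72 h. Of all genes, 7.36% and 9.8% were called lower there. At 72 h UPN-1 had 11 lower, against 3.29% of all genes, and JEKO 4 lower, against 1.43%. At 24 h JEKO and UPN-1 had 0. TK1, thymidine kinase, was called lower at 72 h in all 3 lines, by 0.80 in JEKO (adjusted p = 0.0389), 0.53 in MINO (adjusted p = 0.0161) and 0.45 in UPN-1 (adjusted p = 0.00112), each as a fall on the log2 scale. Without the block, 1 of these 46 genes was called with GS716054 in any line or time, MTBP in MINO at 72 h (log2 fold change -1.05, adjusted p = 0.0234).

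Genes of mitosis were counted beside these. Of 30, 10 were lower at 72 h in JEKO DMSO, against 14.6% of all genes. With GS716054 and the block, 1 was called in MINO at 24 h, where 30 of the 47 replication genes were, and 13 at 72 h, where 15 were. UPN-1 had 1 at 24 h and 10 at 72 h, JEKO 0 at both times, and all of these were lower. The shares of all genes called lower were 7.36% and 9.8% in MINO at 24 and 72 h and 3.29% in UPN-1 at 72 h. The difference between the lists was not tested. The summed level of the mitosis genes in MINO was 4470, 3788 and 4061 CPM in DMSO and 3934, 3121 and 3687 CPM with GS716054 at 24 h, and 3285, 2841 and 3452 against 3298, 1436 and 2388 CPM at 72 h. A list of 17 G1 brakes, RB family genes and other G1 regulators had 3 higher and 3 lower with time in JEKO DMSO, against 14.6% of all genes called lower. CDKN1A, a CDK inhibitor, rose by 1.74 with time in JEKO DMSO (adjusted p = 0.00109). With GS716054 and no block, 2.39% and 5.56% of all genes were called in MINO at 24 and 72 h. The list had 1 lower there at 24 h, 1 higher and 1 lower at 72 h, and 0 in JEKO and UPN-1. MYC, which drives entry into the cycle, was the lower one at both times (log2 fold change -1.55, adjusted p = 7.24e-04, and -1.69, adjusted p = 7.37e-05), and the cyclin D gene CCND3 the higher (0.70, adjusted p = 0.0457). The test for unequal effects in the 3 lines called 1 gene of this list at each time without the block, against 0.106% and 1.02% of all genes. With the block, the list had 1 higher and 3 lower in MINO at 24 h and 2 higher and 1 lower at 72 h. Of all genes, 7.36% and 9.8% were called lower there. In UPN-1 the list had 1 higher and 1 lower at 24 h and 2 higher and 1 lower at 72 h, and in JEKO 0 at 24 h and 1 in each direction at 72 h. Of all genes, 3.29% in UPN-1 and 1.43% in JEKO were called lower at 72 h. At 24 h, 1.5% and 0.0899% were called in either direction. The shares of all genes called higher were not counted here or for the other lists.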

How the data were processed

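RNA of 36 libraries was prepared with a Qiagen mRNA kit, per the labels' protocols. Per the submitters' processing notes, the authors used HISAT2 2.2.1, HTSeq 0.13.5 and GRCh38. The annotation release, strand setting and counting options are not given in the sources used here. The deposited values were whole-number read counts for 58302 gene IDs, of which 57532 were named by GENCODE v44. Summary lines held 55.09% to 59.3% of all reads and stayed out of all tests.

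The members and all gene lists were chosen with earlier results of these data known. The analysis used R 4.3.3, edgeR 4.0.16 and limma 3.58.1. Each line had 1 quasi-likelihood model of its 12 libraries with TMM scaling and 1 mean for each group (8 residual degrees of freedom). Genes were kept by filterByExpr (minimum count 10, total 15), and 16690 (JEKO), 15028 (MINO) and 15248 (UPN-1) passed. Differences among lines used all 36 libraries (17980 genes). Adjusted p values are Benjamini-Hochberg over all genes tested, with a threshold of 0.05, and the SE is the absolute log2 fold change over the square root of F. CPM used TMM within a line, and FPKM used exonic lengths and TMM over 36 libraries. The edgeR and DESeq2 fits were also run on simulated counts, drawn with no effect shared by replicate number. That run could not check how the block behaves where such an effect exists. Counting error and the number of libraries (3 per group) limit precision.

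Replicate numbers were checked for pairing. Deviations of the GS716054 and DMSO libraries with the same number correlated at 0.06 to 0.30 at 24 h and 0.32 to 0.62 at 72 h. Every pair passed 0.1 in 5 of the 6 line and time combinations, and JEKO at 24 h did not (pair 2, 0.06). Between 24 and 72 h in DMSO the correlation was -0.06 to 0.19, so no pairing was used there. The fit with replicate numbers as a block within each time, added after seeing the data, left 4 residual degrees of freedom, and its values stand beside those without the block.

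All members were counted. Per-library values were printed for up to 8 called members per comparison with the largest fold change, and for a fixed list: MCM2, MCM5, MCM10, CDC6, CDT1, CDC45, GINS2, ORC1, PCNA, POLE2, E2F1, CCNE1, CCNE2, CDC25A, SLBP and UHRF1. Members called with the block in 2 or more lines could be added. Other members named beside small counts were chosen after their values were seen. Other genes came from fixed lists. Alternatives were DESeq2 1.42.0 (size factors and test), library totals, no low-count filter, a minimum count of 50, blocks, other sets of libraries, and leaving out libraries or pairs.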

Additional observations from a re-analysis of the deposited data

Results flagged for a closer look

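With the replicate block, the response to GS716054 differed among the 3 lines for 7 of the 47 genes (14.9%) at 24 h, against 5.74% of all genes. At 72 h it differed for 3 (6.38%), a smaller share than the 9.79% of all genes. The test was an F test of both line differences in edgeR's fit of all 36 libraries, adjusted over all genes. Without the block the same test called 0 at either time. At 24 h the log2 fold change of UHRF1 gave a difference of -0.63 for MINO minus JEKO and 0.28 for UPN-1 minus JEKO (adjusted p = 0.00234). CDC25A gave -0.76 for MINO minus JEKO and 0.11 for UPN-1 minus JEKO (adjusted p = 0.00711), and POLA1 gave -0.43 and 0.12 (adjusted p = 0.0175). POLD2 gave -0.42 and 0.22 (adjusted p = 0.0271), CDC6 -0.51 and 0.26 (adjusted p = 0.0322), CDC45 -0.69 and -0.04 (adjusted p = 0.0374) and TIPIN -0.55 and 0.23 (adjusted p = 0.0459). In these 7 genes the lowest effect was that in MINO. At 72 h, CDT1 gave 0.28 and 0.86 (adjusted p = 0.00846), so its effect was largest in JEKO and smallest in UPN-1. MCM5 gave 0.62 and 0.30 (adjusted p = 0.0246), with a positive fitted effect in MINO, and POLA1 gave -0.43 and 0.11 (adjusted p = 0.0145), again lowest in MINO.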

How the results depend on the processing

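Counts below are members called, and none of the 14 named calls without the block and the 42 with it reversed its direction under the settings run for them. Except for the block within time and the MINO fit of 6 libraries, the share of all genes called was not counted under alternative settings. A changed count may therefore not be particular to the members. The block within time, its combinations with other settings, leaving out a pair and the test of the time course among lines were added after seeing the data. Without the block, GS716054 in MINO at 24 h called 0 genes in the main test, 1 with DESeq2 size factors, with a minimum count of 50, with DESeq2's test or in a fit of all 36 libraries, 9 with no low-count filter and 25 in a fit of its 6 libraries alone, where 9.2% of all genes were called lower. Of these 25, 22 were among the 30 called with the block. In MINO at 72 h the counts were 5 with no filter, 1 with DESeq2's test and 0 to 2 leaving out 1 library (2 without MINO DMSO replicate 2). In JEKO at 72 h no filter gave 2, and in UPN-1 at 72 h no filter and DESeq2's test gave 1 each. DMSO over time in MINO gave 18 with no filter, 2 with DESeq2's test and 1 with all 36 libraries. In UPN-1 it gave 2 with no filter and 0 to 7 leaving out 1 library, and in JEKO 9 to 28. The difference in time course among lines gave 6 with no filter.

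A replicate block over both times gave 5 in MINO at 24 h, 5 in MINO at 72 h, 1 in UPN-1 at 72 h, 17 and 7 for DMSO over time in MINO and UPN-1, and 1 for the difference in time course among lines. The replicate block within time gave 8 in JEKO at 72 h, 30 and 15 in MINO at 24 and 72 h, 11 in UPN-1 at 72 h, and 7 and 3 for differences among lines at 24 and 72 h. With that block and no filter, the counts were 2 and 21 in JEKO at 24 and 72 h, 23 in MINO at 72 h, 1 in UPN-1 at 24 h, 1 for the JEKO difference between times and 6 for the difference among lines at 72 h. With that block and library totals they were 4 in JEKO and 6 in UPN-1 at 72 h, and 18 for the difference among lines at 24 h. Leaving out 1 pair gave 1 to 2 in JEKO at 72 h, 1 to 10 in MINO at 24 h, 9 to 14 in MINO at 72 h and 3 to 13 in UPN-1 at 72 h. Leaving out libraries leaves fewer samples. Of 84 values of the 14 named calls made without the block, each with 1 library left out, 54 stayed called and 30 did not, and of 126 with the block and 1 pair left out, 59 did and 67 did not. For the other settings the cause was not tested. Library totals moved the median of all genes in JEKO DMSO over time from 0.05 to 0.17, with 25 members called lower.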
